A study of Drosophila melanogaster with 14 samples.

Results

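The comparison described here set 2 libraries of the *tyf* mutant, collected at ZT16, against 2 wild-type libraries, collected at ZT14 and ZT16, which are 4 of the 14 libraries of the series. ZT counts hours from lights on, so all 4 come from the early night. Each library was made from LNvs, the ventral lateral clock neurons of the fly brain, which were labelled with Pdf>mGFP and sorted by flow cytometry. The series as a whole asked which transcripts depend on *Atx2* and on its partner *tyf* in these neurons, and its other 10 libraries are *tyf* at ZT4, *Atx2* RNAi at ZT0 and ZT12, and wild type at other times. The *tyf* flies carried the allele given as tyf(e), and the wild-type flies did not. All flies were females of the w1118 background, kept at 25°C in light-dark cycles, and were on 1.5x sucrose-yeast food before dissection. The *Atx2* RNAi flies expressed the RNAi in the LNvs, whereas tyf(e) was present in every cell of the fly. The 2 wild-type libraries differ in their time of collection, so the spread within wild type includes any change between ZT14 and ZT16. The labels do not say whether the 2 *tyf* libraries came from separate cultures. The p-values rest on the spread within groups of the 8 libraries fitted together, which need not be a spread between separate cultures.

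TYF is a translational activator that works with ATX2 and the poly(A)-binding protein to promote synthesis of the clock protein PERIOD. LNvs release the neuropeptide PDF, which synchronizes the other clock neurons and sets the rhythm of locomotor activity, and their membrane excitability, peptide content and axonal arbour all change over the day. A protein that acts on translation can alter mRNA levels through the stability of its targets or through the genes that these control.

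The 2 *tyf* libraries held 15750143 and 14155069 estimated counts, against 7754709 in wild type at ZT14 and 16946936 at ZT16. In *tyf*, 51.4% and 46.6% of the counts came from 3 genes, *trol*, *fmt* and *Pdf*, against 36.2% and 36.6% in wild type. Counts were therefore normalized by the trimmed mean of M-values (TMM), and every level below is a normalized count unless another scale is named. *Pdf*, the marker used to sort the cells, was by far the highest of the 13 LNv and clock-neuron markers, all of which were detected. The libraries thus carried the marker of their labelled cell type.

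*tyf* itself (FBgn0026083, chromosome X from 4117020 to 4130016 in the Ensembl annotation) stood at 402 and 533 in the *tyf* libraries, against 5468 and 3717 in wild type. Both mutant libraries were far below both wild-type libraries, with a log2 fold change of -3.30 (SE 0.31, adjusted p = 6.2e-05). This and every adjusted p below comes from edgeR's quasi-likelihood F-test with the Benjamini-Hochberg adjustment over all genes tested. The mean in *tyf* was 0.102 of that in wild type.

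Of 13792 genes, 9503 had enough counts to be tested, and 591 of them (6.22%) had an adjusted p under 0.05. Among these 591 genes, 279 (2.94% of those tested) were higher in *tyf* and 312 (3.28%) were lower. The differences were large, with a median absolute log2 fold change of 1.50, and 523 of the 591 genes changed by at least 1 on the log2 scale. In every one of the 591 genes both *tyf* libraries lay beyond both wild-type libraries, which also held for 5255 of the 9503 tested genes. Across the tested genes the log2 fold change had a median of -0.03. The balance between higher and lower genes depended on the scaling: with library size alone the median moved to -0.42 and 989 genes passed, 129 higher and 860 lower. Each library carried weight, since 261 and 197 genes passed without the first or the second *tyf* library, and 184 and 355 without the wild-type library of ZT14 or of ZT16.

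**Figure D1:**
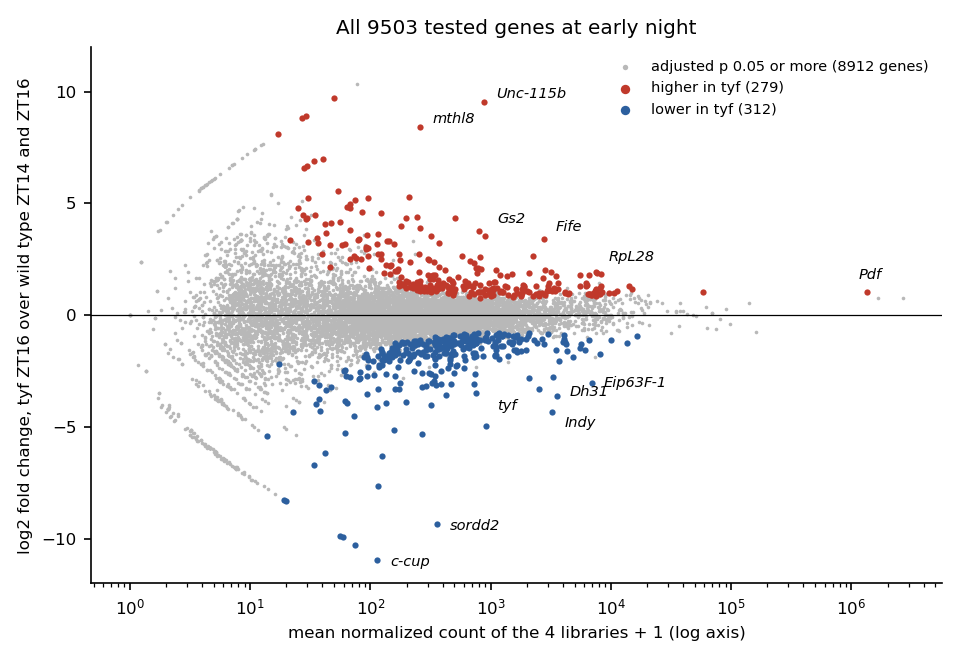
Each point is 1 of the 9503 tested genes, with the mean normalized count of the 4 early night libraries on the log x axis and the log2 fold change of *tyf* over wild type on the y axis. Red marks the 279 genes higher in *tyf*, blue the 312 genes lower, and grey the others; the arcs of points at the far left are genes with no count in 1 group, whose fitted fold change is not a measured size.

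Outside the clock, the genes that separated the genotypes most sharply were switched between near absence and a clear level. *Unc-115b* (FBgn0260463, chromosome 3R from 9687060 to 9692775), which encodes an actin-binding protein of the abLIM family, had 1985 and 1538 normalized counts in *tyf*, against 0 and 3.298 in wild type (adjusted p = 5.7e-06). *mthl8* (FBgn0052475, chromosome 3L from 22428 to 26308), a receptor of the Methuselah-like family, had 628 and 404 in *tyf*, against 1.50 and 1.32 in wild type (adjusted p = 1.3e-06). In the other direction, *sordd2* (FBgn0052581, chromosome X from 15796908 to 15799162) had 0 and 2.05 in *tyf*, against 706 and 724 in wild type (adjusted p = 8.2e-07). These 3 genes therefore had a clear level in 1 genotype and at most 5 counts per library in the other. For *Unc-115b* this need not be a change in the total, since summed with its similar neighbour *Unc-115a* it had 2863 and 2661 in *tyf*, against 3401 and 2459 in wild type, and the groups overlapped.

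By the rule that a gene has at most 3 counts in both libraries of 1 group and at least 30 in both of the other, 10 of the 13792 genes (0.0725%) were present in *tyf* only and 9 (0.0653%) in wild type only. The 10 were *mthl8*, *Ada1-1*, *tut*, *MP1*, *Trissin*, *Orcokinin*, *CG15601*, *CG2772*, *CG31100* and *pre-mod(mdg4)-J*. The 9 were *c-cup*, *ato*, *CG14292*, *CNMa*, *sordd2*, *CG42808*, *CG15478*, *E(spl)m6-BFM* and *Prosalpha1*. *ato* (chromosome 3R from 8278052 to 8279274), the proneural transcription factor atonal, had no count in either *tyf* library and 112 and 108 in wild type, so it was at least 35.9-fold lower in *tyf* (adjusted p = 0.00080). The bound sets the wild-type mean against the normalized value of 3 counts in the *tyf* library where that value was larger. *c-cup* (chromosome 2L from 1831627 to 1832565), a gene of the cup family of late spermatid transcripts, had no count in *tyf* and 85.3 and 368 in wild type, at least 73.8-fold lower (adjusted p = 0.00048). *CG14292* was likewise without a count in *tyf*, against 109 and 183 in wild type, at least 47.7-fold lower (adjusted p = 0.00027). *Ada1-1*, a copy of a subunit of the SAGA coactivator, went the other way with 106 and 90.0 in *tyf* and no count in wild type, at least 21.8-fold higher (adjusted p = 0.0014). Its similar neighbour *Ada1-2* lies 2755 bases away, and the sum of both copies was 159 and 149 in *tyf*, against 103 and 83.1 in wild type, a log2 ratio of 0.72, and how the reads were divided between the copies was not tested.

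The *Atx2* RNAi libraries and the wild-type libraries of other times were read for the same genes. *sordd2* had between 80 and 328 counts in the 4 *Atx2* RNAi libraries and between 297 and 1303 in the 4 other wild-type libraries, so the near absence was seen in the *tyf* genotype, where the 2 libraries of ZT4 each had 2 counts. *c-cup*, *ato* and *CG14292* had at most 3 counts in each of the *Atx2* RNAi libraries and at least 26 counts in each other wild-type library. *mthl8* had between 105 and 234 counts in the *Atx2* RNAi libraries and at most 2 in the other wild-type libraries. For these 4 genes the *Atx2* RNAi libraries thus sided with *tyf*. *Unc-115b*, on a scale normalized over all 14 libraries, had between 158.5 and 434.9 in *Atx2* RNAi and at most 10.85 in the other wild-type libraries. *Ada1-1* had between 7 and 81 counts in *Atx2* RNAi and 0 in the other wild-type libraries, so both sided with *tyf* too. So did *CG15601* (23 to 71 counts, against at most 6) and *tut* (43 to 81, against at most 14). The mutation, the stocks and the preparation of the libraries cannot be told apart. *Prosalpha1*, a proteasome subunit, was at 0 in both *tyf* libraries, against 160 and 71.2 in wild type, but it was also at 0 in the wild-type libraries of ZT4 and ZT12. Several other genes were not confined to 1 genotype either. In the other wild-type libraries *MP1* had between 12 and 118 counts, *CG2772* up to 84, *CG31100* up to 30 and *pre-mod(mdg4)-J* up to 45. *E(spl)m6-BFM* ranged there from 0 to 111. In *tyf* at ZT4, *CG42808* had 268 and 14 counts and *CG15478* had 41 and 34.

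The remaining genes that were highest relative to wild type had varied functions. *Sod3*, an extracellular superoxide dismutase, had 325 and 145 in *tyf*, against 7.48 and 11.2 in wild type (log2 fold change 4.57, SE 0.69, adjusted p = 0.0019). *Rh50*, an ammonium transporter of the Rhesus family, had 125 and 162 in *tyf*, against 5.98 and 2.64 (log2 fold change 5.16, SE 0.95, adjusted p = 0.0065). *Crg-1*, a forkhead gene first described for its circadian expression, had 127 and 118 in *tyf*, against 1.50 and 5.94 (log2 fold change 4.82, SE 0.69, adjusted p = 0.0015). The other genes of this group, *CG1552*, *CG9686*, *CG42245*, *CG10936*, *CG31937*, *CG31706* and *wrapper*, had log2 fold changes between 4.39 and 5.54. In *wrapper* and *CG9686* the first *tyf* library carried most of the signal, with 196 and 349 counts, and the second had 10.2 and 17.4, against 5.98 or fewer in either wild-type library.

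Among the genes lowest relative to wild type were receptors and neuronal proteins. *Ret* (FBgn0011829, chromosome 2L from 21182446 to 21198762), a receptor tyrosine kinase, had 10.7 and 6.139 in *tyf*, against 350 and 259 in wild type (log2 fold change -5.15, SE 0.52, adjusted p = 0.00011). *PK2-R1*, a receptor for pyrokinin peptides, had 4.86 and 7.16 in *tyf*, against 115.2 and 161 (log2 fold change -4.50, SE 0.67, adjusted p = 0.0017). *Drep3*, a relative of the DNA fragmentation factor, had 12.7 and 13.3 in *tyf*, against 779 and 257 (log2 fold change -5.30, SE 0.73, adjusted p = 0.0012). *uncNacbeta*, *CG12446* and *CG42808* fell as well, with log2 fold changes between -7.63 and -5.25. *CG12446* was not called with any of the 4 libraries left out, where its log2 fold change lay between -5.86 and -4.84. In such fits *CG42808* was called only without wild type of ZT16, and its log2 fold change lay between -10.9 and -5.19. In *CG42808* the wild-type libraries themselves were far apart, at 414 and 40.2.

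Large changes also reached abundant transcripts. The 6 genes described next were chosen after their values were seen, as the genes that passed with at least 5000 normalized counts in the higher group and an absolute log2 fold change of at least 2, and *tyf* was not among them. *Indy* (chromosome 3L from 18828632 to 18846267), a transporter of citrate and other dicarboxylates known for its effect on lifespan, had 296 and 319 in *tyf*, against 6454 and 6005 in wild type, with a log2 fold change of -4.34 (SE 0.43, adjusted p = 0.00011). *Eip63F-1*, an ecdysone-induced calcium-binding protein, had 1359 and 1673 in *tyf*, against 14916 and 9725 (log2 fold change -3.02, SE 0.35, adjusted p = 0.00039). Both were thus among the well-expressed genes of wild-type LNvs at this time and were several-fold lower in both mutant libraries. *Dh31*, which encodes the diuretic hormone 31 peptide, had 499 and 575 in *tyf*, against 8262 and 4909 (log2 fold change -3.62, SE 0.33, adjusted p = 6.2e-05). *CG13248* had 1644 and 1240 in *tyf*, against 6520 and 5368 (log2 fold change -2.04, SE 0.26, adjusted p = 0.00082). The other genes of the 6, *Proc* and *Fife*, are given with the peptides and the synaptic genes below, and of the 6 only *Fife* was higher in *tyf*.

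**Figure D2:**
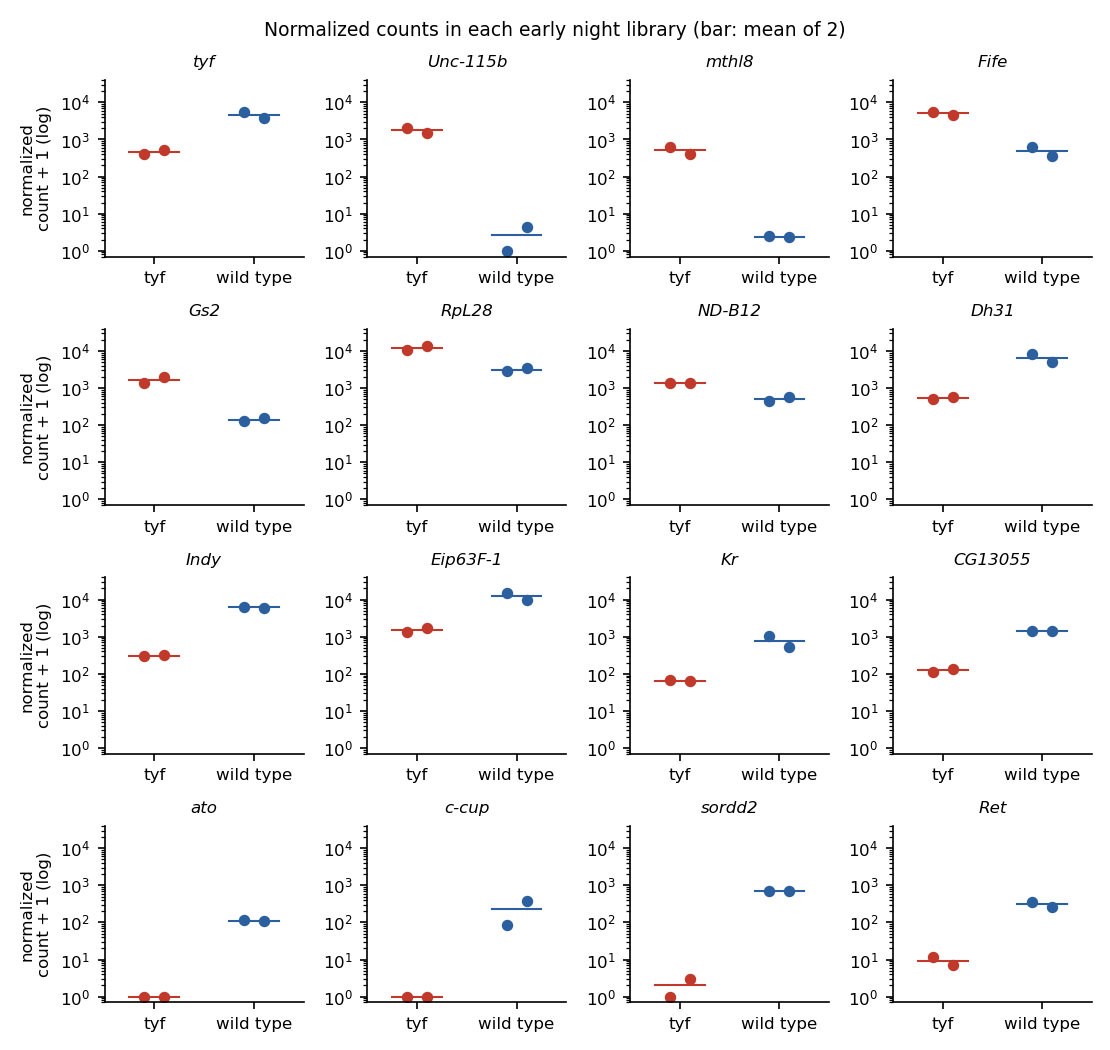
Normalized counts plus 1, on a log axis shared by all panels, in the 2 *tyf* libraries (red) and the 2 wild-type libraries (blue, ZT14 then ZT16), with the mean of each group as a bar, for 16 genes described in the text. In every panel both *tyf* libraries lie on the same side of both wild-type libraries.

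Neuropeptides and their receptors changed in both directions. Of 27 neuropeptide genes tested, 3 rose and 3 fell, 22.2% against 6.22% of all genes. *Pdf* had 1830798 and 1769733 in *tyf*, against 791152 and 958122 in wild type, so that both mutant libraries were above both wild-type libraries by about as much (log2 fold change 1.04, SE 0.26, adjusted p = 0.029). *Pdf* did not pass with a minimum of 10 counts per library, nor with any of the 4 libraries left out. With a library left out its log2 fold change lay between 0.91 and 1.19. *7B2*, a chaperone of the convertase that processes peptide precursors, followed with 77934 and 78046 in *tyf*, against 36855 and 40192 (log2 fold change 1.02, SE 0.24, adjusted p = 0.024), but it was not called with any of the 4 libraries left out (adjusted p up to 0.18). *Trissin* had 69.1 and 46.0 in *tyf*, against 0 and 0.660 in wild type (adjusted p = 0.015), and *Orcokinin* had 54.5 and 52.2, against 4.49 and 1.32 (adjusted p = 0.020). Both peptides were thus close to absent in wild type at this time and low but present in the mutant. At other times wild type had 23 counts of *Orcokinin* at ZT12 and 35 of *Trissin* at ZT4. *Orcokinin* was not called with any of the 4 libraries left out, and *Trissin* was not called without either wild-type library. The 3 peptides that fell were *Dh31*, *CNMa* and *Proc*. *CNMa* had no count in *tyf* and 53.8 and 21.1 in wild type, at least 12.2-fold lower (adjusted p = 0.011). *Proc*, proctolin, had 747 and 953 in *tyf*, against 3512 and 8009 (log2 fold change -2.76, SE 0.68, adjusted p = 0.029). Without either *tyf* library 1 peptide was higher and 1 lower, and without either wild-type library 0 were higher and 2 lower. The median log2 fold change of the 27 genes was 0.32 (0.31 with genes that had no count in 1 group set to their bound), and it changed sign to -0.07 when libraries were scaled by size alone.

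Of 62 receptors for peptides and amines, 4 rose and 6 fell (16.1% together). The 4 were *AstC-R1* for allatostatin C, *CCHa1-R* for the peptide CCHamide-1, *Dop1R1* for dopamine and the muscarinic *mAChR-B*. *Dop1R1* had 2493 and 1704 in *tyf*, against 673 and 575 in wild type (log2 fold change 1.75, SE 0.26, adjusted p = 0.0017). *Dop1R2*, another dopamine receptor, went the opposite way, with 38.9 and 36.8 in *tyf*, against 175 and 289 (log2 fold change -2.62, SE 0.41, adjusted p = 0.0023). These dopamine receptors thus moved in opposite directions. The other receptors that fell were *PK2-R1*, *FMRFaR*, *GABA-B-R3*, *TkR86C* and *hec*. *GABA-B-R3*, a metabotropic GABA receptor, had 90.5 and 51.2 in *tyf*, against 739 and 519 (log2 fold change -3.14, SE 0.33, adjusted p = 0.00020), and *FMRFaR* had 20.4 and 36.8, against 344 and 230 (log2 fold change -3.32, SE 0.50, adjusted p = 0.0017). Without the first or the second *tyf* library 2 and 4 of the receptors were higher and 6 and 4 lower, and without wild type of ZT14 or ZT16 2 and 3 were higher and 4 and 7 lower.

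The few channel and exchanger genes that passed in edgeR were lower, and nicotinic receptors passed on both sides. Of 40 sodium, calcium, leak and TRP channel genes and exchangers, 5 fell and none rose in edgeR (12.5%, against 6.22% of all genes). In edgeR 15 of the 40 had an unadjusted p under 0.05, and DESeq2 called 1 higher and 9 lower. The 5 were *CG1090*, a predicted sodium-calcium exchanger, *Tmem63*, the chloride transporter *ClC-c*, the calcium channel subunit *Ca-beta* and the ryanodine receptor *RyR*. *Ca-beta* had 607 and 580 in *tyf*, against 1508 and 1123 in wild type (log2 fold change -1.15, SE 0.23, adjusted p = 0.011). These calls rested on few libraries, since without the first or the second *tyf* library 1 and 0 were lower, and without wild type of ZT14 or ZT16 1 and 5. Of 25 potassium channels, only the inward rectifier *Irk1* passed in edgeR (4%, below the 6.22% of all genes). In edgeR 7 of the 25 had an unadjusted p under 0.05, and DESeq2 called 1 higher and 2 lower. *Irk1* had 617 and 632 in *tyf*, against 2496 and 1887 (log2 fold change -1.81, SE 0.29, adjusted p = 0.0028). Among 27 ionotropic transmitter receptors, *nAChRalpha3* rose and *nAChRalpha7* and *nAChRalpha1* fell (11.1% together, against 6.22% of all genes). *nAChRalpha3* had 5713 and 5036 in *tyf*, against 1751 and 2151 (log2 fold change 1.46, SE 0.24, adjusted p = 0.0037), and no nicotinic receptor was called lower with any of the 4 libraries left out.

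Synaptic genes were mixed, and the active zone scaffold *Fife* stood out. It had 5612 and 4451 in *tyf*, against 615 and 347 in wild type (log2 fold change 3.39, SE 0.31, adjusted p = 6.2e-05). Of 45 genes of synaptic vesicles, the active zone and other synaptic parts, 3 rose and 4 fell (15.6% together, against 6.22% of all genes). The 3 were *Fife*, the neuroligin *Nlg4* and the scaffold *dlg1*. The 4 were the vesicle GTPase *Rab3*, the Sec1/Munc18 protein *Rop*, the clathrin adaptor *AP-2alpha* and synapsin, *Syn*. *Rab3* had 2611 and 2344 in *tyf*, against 6482 and 5582 (log2 fold change -1.28, SE 0.25, adjusted p = 0.0091). The exchange factor *Rab3-GEF*, which acts on RAB3, had 1044 and 688, against 2095 and 1862 (log2 fold change -1.19, SE 0.28, adjusted p = 0.022). *Rab3* and its exchange factor were thus lower together. Neither passed without the second *tyf* library or without wild type of ZT14. Of the synaptic list, 1 and 2 were higher and 1 and 0 lower without the first or the second *tyf* library, and without wild type of ZT14 or ZT16 1 was higher and 0 and 3 lower. *Cadps*, which primes dense core vesicles for release, also fell, with 1634 and 1378 in *tyf*, against 2822 and 2493 (log2 fold change -0.82, SE 0.22, adjusted p = 0.045), but it was not called with any of the 4 libraries left out (adjusted p up to 0.37).

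Second messenger genes included enzymes that make and degrade cyclic nucleotides. Of 57 genes of cAMP and calcium signalling, 2 rose and 6 fell (14% together). The adenylyl cyclase *Ac13E* had 5939 and 4765 in *tyf*, against 1280 and 1877 in wild type (log2 fold change 1.76, SE 0.31, adjusted p = 0.0055), and the phosphodiesterase *Pde11* had 1532 and 920, against 215 and 342 (log2 fold change 2.13, SE 0.43, adjusted p = 0.011). The phosphodiesterases *Pde6* and *Pde8* fell, so members of this enzyme family moved in both directions. *Pde6* had 505 and 374 in *tyf*, against 1325 and 1098 (log2 fold change -1.46, SE 0.25, adjusted p = 0.0041). The other genes that fell were *rgn*, the neurocalcin *Nca*, the G protein subunit *Ggamma30A* and *Epac*, an exchange factor that responds to cAMP. Without the first or the second *tyf* library 1 and 2 were higher and 2 and 1 lower, and without wild type of ZT14 or ZT16 0 and 2 were higher and 1 and 5 lower.

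Cell surface proteins that guide axons and synaptic partners also moved both ways. Of 75 adhesion and wiring genes, 5 rose and 9 fell (18.7% together), with a median log2 fold change of -0.09. The immunoglobulin protein *klg* had 4007 and 3750 in *tyf*, against 310 and 918 in wild type (log2 fold change 2.65, SE 0.48, adjusted p = 0.0061). The leucine-rich repeat protein *trn* had 67.1 and 114 in *tyf*, against 555 and 633 (log2 fold change -2.72, SE 0.45, adjusted p = 0.0033), and its paralog *caps* had 139 and 137, against 670 and 425 (log2 fold change -1.98, SE 0.33, adjusted p = 0.0037). The paralogs *trn* and *caps*, which both act in target recognition by axons, were thus lower together. The proteins of the dpr and DIP genes bind each other across synapses. Among these 32 genes *DIP-kappa*, *dpr1*, *dpr8* and *dpr9* rose and *DIP-theta* and *dpr3* fell (18.8% together, against 6.22% of all genes). *DIP-kappa* had 1212 in each *tyf* library, against 227 and 251 in wild type (log2 fold change 2.34, SE 0.27, adjusted p = 0.00036). Of the 21 beat and side genes, *beat-VII* and *side-II* rose and *beat-IIb* and *side-IV* fell (19% together). *beat-VII* had 3992 and 5126 in *tyf*, against 1235 and 1009 (log2 fold change 2.02, SE 0.28, adjusted p = 0.0012). Of the adhesion list, 5 and 4 were higher and 4 and 3 lower without the first or the second *tyf* library, and without wild type of ZT14 or ZT16 3 and 5 were higher and 3 and 6 lower. Of the dpr and DIP genes at most 2 were then higher and 1 lower, and of the beat and side genes at most 2 higher and 1 lower, whichever of the 4 libraries was left out.

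Of 53 cytoskeletal genes 1 rose and 4 fell (9.43% together, against 6.22% of all genes), and the list as a whole was centred near 0, with 26 members above 0, 27 below and a median of -0.04. Both cytoplasmic actins were lower. *Act5C* had 8589 and 7601 in *tyf*, against 20141 and 18488 in wild type (log2 fold change -1.25, SE 0.24, adjusted p = 0.0075), and *Act42A* had 526 and 658, against 1502 and 1530 (log2 fold change -1.36, SE 0.22, adjusted p = 0.0032). *Dhc64C*, the heavy chain of cytoplasmic dynein, fell too. Without any 1 of the 4 libraries, 2 or 3 of the list were lower. The remaining pair were *Unc-115a*, which fell, and its neighbour *Unc-115b*, which rose. They lie 1611 bases apart, and estimated counts can be exchanged between similar transcripts. *Unc-115a* had 879 and 1123 in *tyf*, against 3401 and 2456 (log2 fold change -1.55, SE 0.25, adjusted p = 0.0029). As given above, the sums of the pair overlapped, so the pair showed a different split between its members. The neighbours *HIP-R* and *HIP* behaved in the same manner, one up and the other down, with sums of 1562 and 1636 in *tyf*, against 1370 and 1575. For *sordd1* and *sordd2* the sum did differ, with 740 and 621 in *tyf*, against 1596 and 1699. How the reads were divided between such copies was not tested.

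Of 131 transcription factors tested, 2 rose (1.53%, against 2.94% of all genes) and 11 fell (8.4%, against 3.28%), and the median log2 fold change of the list was 0.13. DESeq2 called 9 higher and 12 lower, so the balance between the directions depended on the tool. The 2 were *Eip93F* and *rn*. *Eip93F*, an ecdysone-induced transcription factor, had 12387 and 12017 in *tyf*, against 1793 and 4735 in wild type (log2 fold change 1.90, SE 0.38, adjusted p = 0.011). Those that fell included factors best known from patterning and cell identity. *Kr*, the zinc finger protein Krüppel, had 65.2 and 63.4 in *tyf*, against 1047 and 513 (log2 fold change -3.59, SE 0.36, adjusted p = 0.00011). *fkh*, forkhead, had 38.9 and 10.2 in *tyf*, against 491 and 246 (log2 fold change -3.88, SE 0.52, adjusted p = 0.00095), and *tup*, a LIM homeodomain factor, had 4.86 and 19.4, against 254 and 169 (log2 fold change -4.11, SE 0.60, adjusted p = 0.0015). The LIM homeodomain gene *ap* and the gap gene *gt* were lower as well. Without the first or the second *tyf* library 7 and 5 were lower, and without wild type of ZT14 or ZT16 5 and 7, with 1 or 2 higher in each case.

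Activity-regulated genes fell as a group of 7 out of 20, with none higher. Such genes are induced in neurons by firing. The share was 35% against 6.22% of all genes, 17 of the 20 were below 0 and the median log2 fold change was -1.04. *CG13055* had 112 and 136 in *tyf*, against 1389 and 1385 in wild type (log2 fold change -3.48, SE 0.27, adjusted p = 9e-06). *sr*, the fly homolog of the EGR factors, had 76.9 and 34.8, against 162 and 299 (log2 fold change -2.05, SE 0.42, adjusted p = 0.012). *Arc1*, which encodes a capsid-like protein that carries RNA between cells, had 35.0 and 78.8, against 538 and 3012 (log2 fold change -4.97, SE 1.18, adjusted p = 0.024). Its wild-type level varied widely, since in this fit the wild-type library of ZT4 had 68.0, within the range of the *tyf* libraries. The others that fell were its neighbour *Arc2*, the phosphatase *Mkp3*, *CG8910* and *CG14186*. *Hr38* and *kay*, the fly homologs of NR4A and FOS, were lower in *tyf* too but did not pass, with adjusted p of 0.33 and 0.11. Counts of lower genes ranged from 1 to 4 with a library left out, at 3 and 1 without the first or the second *tyf* library and at 4 and 2 without wild type of ZT14 or ZT16. At ZT4, where 2 of the 20 fell, the median was -0.31.

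The largest family that moved one way was that of the cytosolic ribosomal proteins, which form the 2 subunits of the ribosome. Of 87 tested, 33 rose and 1 fell, so that 37.9% were higher against 2.94% of all genes, and 81 were above 0 with a median log2 fold change of 0.84. The 33 ranged from 0.87 to 1.94. *RpL28* (chromosome 3L from 3220911 to 3222960) had 10764 and 13334 in *tyf*, against 2908 and 3385 in wild type (log2 fold change 1.94, SE 0.24, adjusted p = 0.00061). *RpL4* had 12609 and 13368, against 3895 and 3385 (log2 fold change 1.84, SE 0.24, adjusted p = 0.00095), and *RpS30* had 8833 and 9090, against 2999 and 3705 (log2 fold change 1.42, SE 0.23, adjusted p = 0.0028). Each of these was several-fold higher in both mutant libraries. *RpL34b* had 4373 and 5765 in *tyf*, against 1378 and 1307, and its near-identical paralog *RpL34a* was also higher. The member that fell was *RpS15Ab*, with 93.4 and 68.6 in *tyf*, against 177 and 300, whereas its copy *RpS15Aa* had 8410 and 9659, against 6684 and 8749, and did not pass (adjusted p = 0.63).

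Subunits of the respiratory chain, which make ATP in mitochondria, rose in 17 of 78 cases (21.8%) and fell in none, with a median of 0.61. *ND-B12* of complex I had 1401 and 1411 in *tyf*, against 452 and 579 in wild type (log2 fold change 1.44, SE 0.23, adjusted p = 0.0028). *SdhB* of complex II had 1795 and 1534, against 790 and 760 (log2 fold change 1.10, SE 0.24, adjusted p = 0.017). *COX4* of complex IV had 5679 and 5887, against 2541 and 3456 (log2 fold change 0.95, SE 0.23, adjusted p = 0.027). *RFeSP* and *UQCR-Q* of complex III and *blw* and *ATPsynF* of the ATP synthase were also among the 17. The genes that rose were thus not confined to complexes I, II and IV. Of 73 mitochondrial ribosomal proteins only 3 rose and 1 fell (5.48%), and none of these calls remained with any of the 4 libraries left out. The direction was nonetheless similar, since 57 of the 73 were above 0, with a median of 0.49. DESeq2 called 8 higher and 1 lower.

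The ribosomal and respiratory results stood beside a trend with transcript length, and their counts moved with the scaling and with single libraries. Over all genes, the median log2 fold change was 0.62 for the 337 genes with an effective length of up to 500 bases, 0.27 for the 1446 genes from there to 1000 bases, and between -0.17 and -0.04 in each longer class. The median effective length was 615 bases for the cytosolic ribosomal proteins and 647 for the respiratory subunits. With these lists and the mitochondrial ribosomal proteins left out, 107 genes of up to 1000 bases with a mean of at least 1000 counts had a median of 0.28, and 10.3% of them were higher. With library size as the only scaling, 13 of the ribosomal proteins were higher and 1 lower (median 0.46), and 4 of the respiratory subunits were higher and 1 lower (median 0.22). As a share of all transcripts in the deposited TPM values, the ribosomal proteins made up 13.8% and 16.4% in *tyf*, against 11.01% and 13.5% in wild type, and the respiratory subunits 2.48% and 2.76%, against 2.18% and 2.63%, so the respiratory shares overlapped. *Pdf* alone took 34.6% and 32.8% of these values in *tyf*, against 21.85% and 24.4% in wild type, which left less for all other genes in *tyf*. Without the first or the second *tyf* library 20 and 4 ribosomal proteins were higher, and without wild type of ZT14 or ZT16 4 and 17. For the respiratory subunits these counts were 7, 2, 2 and 10. An offset for the average transcript length of each gene in each library left both lists much as they were, with 35 ribosomal proteins higher and 1 lower (median 0.86) and 17 respiratory subunits higher (median 0.64). That offset adjusts for differences in transcript length between libraries, and the part of the trend over short genes was not tested.

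**Figure D3:**
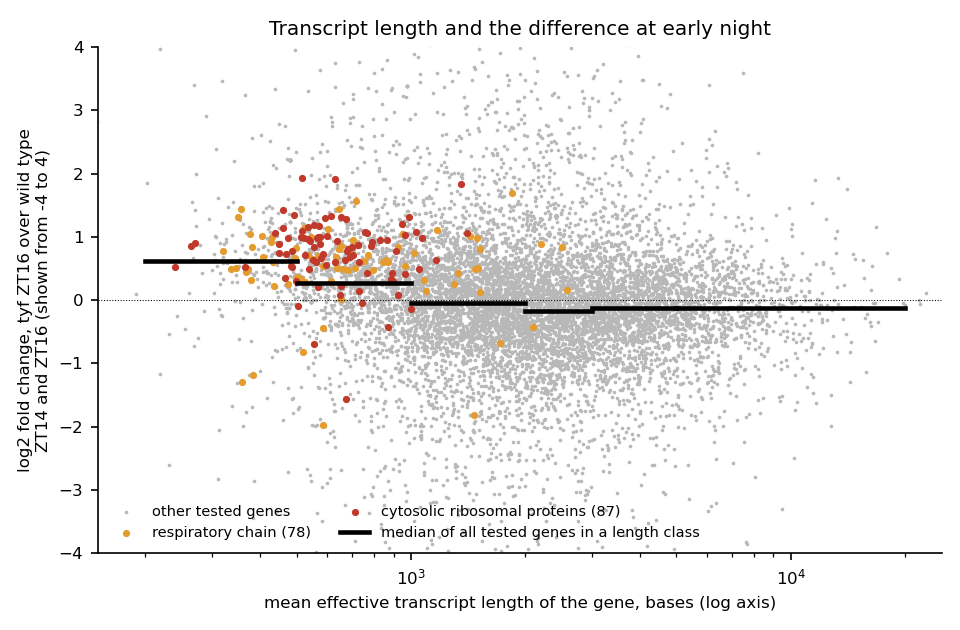
Effective transcript length of each tested gene in bases (log x axis) against its log2 fold change of *tyf* over wild type at early night, shown from -4 to 4. Black bars are medians of all tested genes in length classes and run from 0.62 in the shortest class down to about -0.1 in the longest; cytosolic ribosomal proteins (red) and respiratory chain subunits (orange) lie mostly in the short classes and mostly above 0.

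Factors that act on translation did not follow the ribosomal proteins. Of 46 translation factors, 2 rose, *eIF3k* and *eEF1beta*, and 2 fell, the release factors *eRF1* and *eRF3*, which end protein synthesis as a complex (8.7% together). *eRF1* had 213 and 312 in *tyf*, against 642 and 707 in wild type (log2 fold change -1.36, SE 0.26, adjusted p = 0.0080). *eRF3* had 408 and 400, against 1131 and 887 (log2 fold change -1.32, SE 0.27, adjusted p = 0.012). Both release factors were thus lower together. Without the first or the second *tyf* library 0 and 1 translation factors were lower, and without wild type of ZT14 or ZT16 1 and 2. Among 50 genes for TYF, ATX2 and their partners in mRNA control, only *tyf* and *gw*, the GW182 protein of microRNA silencing, fell and none rose in edgeR, where 16 had an unadjusted p under 0.05 and DESeq2 called 2 higher and 2 lower. *Atx2* had 1805 and 1756 in *tyf*, against 1687 and 1386 (adjusted p = 0.64), and *pAbp*, the poly(A)-binding protein, had 25001 and 28180, against 13718 and 14879 (log2 fold change 0.90, SE 0.25, adjusted p = 0.053). Of 35 small RNA genes, *nxf2*, *qin* and *AGO2* fell (8.57%, against 6.22% of all genes). With any of the 4 libraries left out *nxf2* was still called and *qin* was not, and *AGO2* was called only without the second *tyf* library. *AGO2*, the Argonaute of RNA interference, had 482 and 658 in *tyf*, against 1232 and 1249 (log2 fold change -1.12, SE 0.24, adjusted p = 0.015).

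Stress, redox and detoxification genes moved gene by gene. *MtnA*, a metallothionein, had 1008 and 330 in *tyf*, against 52.4 and 85.8 in wild type (log2 fold change 3.24, SE 0.58, adjusted p = 0.0058). *Gclc*, which makes the precursor of glutathione, had 1912 and 1831, against 579 and 919 (log2 fold change 1.32, SE 0.30, adjusted p = 0.020). With *Sod3* these made 3 of 53 redox genes higher, and *Xrp1* was lower, 7.55% together against 6.22% of all genes. *Xrp1* was not called with any of the 4 libraries left out, and without the first or the second *tyf* library 2 and 3 were higher, and without wild type of ZT14 or ZT16 1 and 3. Of 47 cytochrome P450 genes, *Cyp28d1* rose, with 482 and 269 in *tyf*, against 5.98 and 27.0, while *Cyp4g1*, a hydrocarbon-forming enzyme of oenocytes, fell, with 20.4 and 52.2, against 642 and 553, and *Cyp4p2* fell at a low level. *Cyp28d1* and *Cyp4g1* had adjusted p of 0.0026 and 0.0079. The wild-type level of *Cyp4g1* varied widely. On a scale normalized over all 14 libraries it was 35.3 at ZT2, 347 at ZT4, 5.92 at ZT12 and 4.48 at ZT24, against 17.7 and 44.5 in *tyf* at ZT16. *Hsp70Bbb* had 327 and 710 in *tyf*, against 88.2 and 99.6, but the 6 *Hsp70* copies together had 9886 and 14085, against 12061 and 15653, with overlapping groups. *Hsf*, the heat shock factor, fell, with 425 and 458 in *tyf*, against 1032 and 863 (log2 fold change -1.10, SE 0.23, adjusted p = 0.013).

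Several lists had no gene that passed. Of 46 immune genes edgeR called 0, with 7 at an unadjusted p under 0.05 and 1 higher by DESeq2. Of 63 cell cycle and replication genes it called 0, with 6 at an unadjusted p under 0.05 and 0 by DESeq2. Of 39 splicing and export genes it called 0, with 4 at an unadjusted p under 0.05 and 1 lower by DESeq2. Over all genes, 21.7% had an unadjusted p under 0.05, and DESeq2 called 11.6% of the 8845 genes to which it gave an adjusted p. Of the 3290 tested genes known only by a CG number, 69 rose and 105 fell (5.29%), and they made up 29.4% of the 591.

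**Figure D4:**
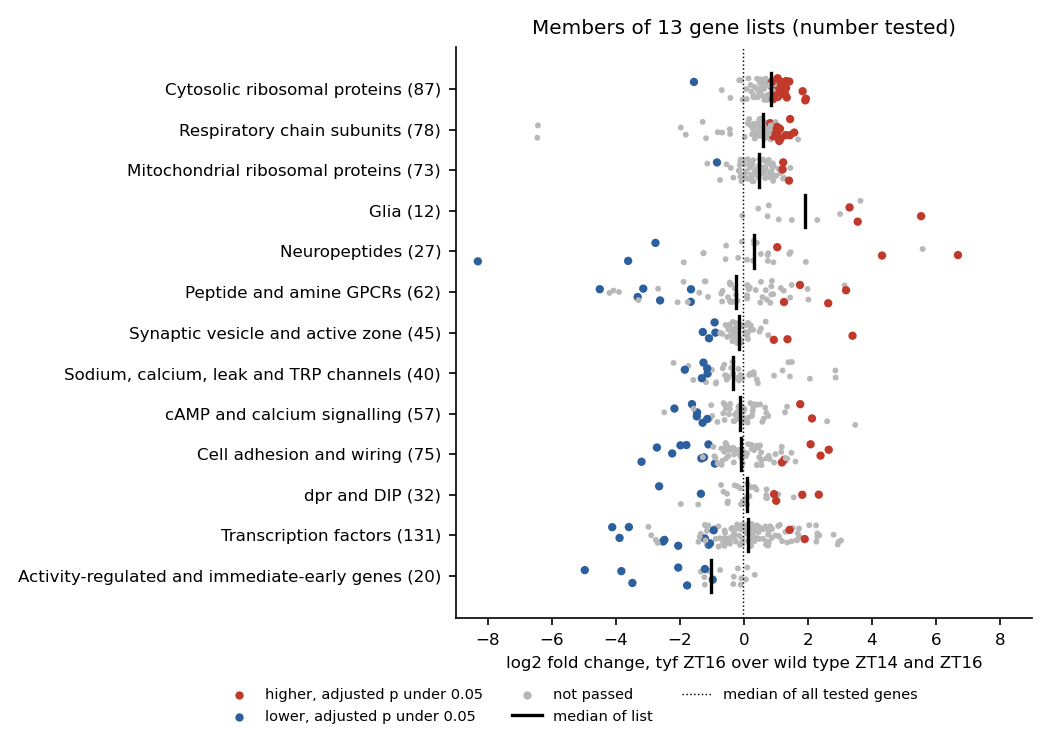
Log2 fold change of *tyf* over wild type at early night for the tested members of 13 gene lists, with the number tested in brackets; red and blue points passed as higher and lower, grey points did not pass, black bars are list medians and the dotted line is the median of all tested genes. The cytosolic ribosomal and respiratory lists lie to the right (medians 0.84 and 0.61), the activity-regulated list to the left (-1.04), and the receptor, adhesion and signalling lists have passing genes on both sides.

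Markers of other cell types were counted beside these results. In bulk samples, more cells of a type and more RNA per cell cannot be told apart. Of 12 tested glial markers 11 were above 0, with a median log2 fold change of 1.90. The 3 that rose were *Gs2*, *Gat* and *wrapper* (25%, against 2.94% of all genes). *Gs2*, the glutamine synthetase of glia, had 1369 and 1961 in *tyf*, against 129 and 153 in wild type (log2 fold change 3.56, SE 0.47, adjusted p = 0.00095). The defining glial factor *repo* had 52.5 and 26.6 in *tyf*, against 5.98 and 3.96, which did not pass (adjusted p = 0.075). The glial markers summed to 4394 and 4460 in *tyf*, against 1992 and 2232 in wild type. At ZT4 they summed to 5336 and 3211 in *tyf*, against 1952 and 1978. *Gs2* alone made up 1369 and 1961 of the early night sums in *tyf*, and 129 and 153 of those in wild type. *Eaat2*, another abundant marker of the list, was not higher. On a scale normalized over all 14 libraries it had 1236 and 1330 in *tyf* at ZT16, against 1262 and 1432 in wild type of ZT14 and ZT16. Without the first or the second *tyf* library 1 and 4 of the markers were higher, and without wild type of ZT14 or ZT16 3 and 1. The part of glial RNA in the other differences was not tested.

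Of 19 photoreceptor and eye genes *ninaE* and *Arr2* rose (10.5%, against 2.94% of all genes), and the median log2 fold change was 1.16. *ninaE*, the main rhodopsin, had 1098 and 1896 in *tyf*, against 26.9 and 185 (log2 fold change 3.76, SE 0.77, adjusted p = 0.012). The list summed to 11823 and 13133 in *tyf*, against 13183 and 7690, with overlapping groups, and its median at ZT4 was -0.83. Without the second *tyf* library or wild type of ZT14, 0 of the list were higher, and DESeq2 called 1. Of 6 haemocyte markers *PPO2* alone rose, with 263 and 243 in *tyf*, against 82.3 and 49.5 (adjusted p = 0.017), which was not called with any of the 4 libraries left out. In edgeR 0 of 12 muscle, 0 of 9 fat body and 0 of 7 tracheal markers passed, with 3, 1 and 0 at an unadjusted p under 0.05, and DESeq2 called 1 muscle marker lower and 0 of the others. Among 13 markers of neurons with other transmitters 3 fell (23.1%, against 3.28% of all genes) and 5 were above 0. The list median was -0.28. The 3 were the cholinergic genes *VAChT* and *ChAT* and the decarboxylase *Ddc* of the amine pathways. *VAChT* had 164 and 120 in *tyf*, against 1095 and 606 (log2 fold change -2.58, SE 0.34, adjusted p = 0.00095), and *ChAT* had 402 and 222, against 1167 and 1124 (log2 fold change -1.88, SE 0.36, adjusted p = 0.0082). These 2 genes share a locus, with *VAChT* in an intron of *ChAT*, and were lower together. DESeq2 called 2 of the 13 markers higher and 4 lower. The 13 markers summed to 24198 and 24162 in *tyf*, against 16693 and 20692 in wild type. At ZT4 their sums were 18038 and 22643 in *tyf*, against 36623 and 32825. With a library left out, the list median lay between -1.17 and 0.37.

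The genes that passed were spread over all arms. Per chromosome arm, the share that passed lay between 5.69% on X and 8.97% on chromosome 4, where 7 of 78 passed. Around *tyf* itself, 3 of 28 genes within 0.25 Mb passed (10.7%), 6 of 47 within 0.5 Mb (12.8%), 8 of 95 within 1 Mb (8.42%) and 15 of 264 within 2 Mb (5.68%). The 6 within 0.5 Mb were *tyf*, *CG2938*, *GlcAT-I*, *HIP*, *HIP-R* and *Crg-1*. The eye colour gene *w*, which commonly marks transgenes, had 2567 and 2853 in *tyf*, against 1066 and 1496 in wild type (log2 fold change 1.08, SE 0.27, adjusted p = 0.031).

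The *tyf* libraries of ZT4 were set against wild type of ZT2 and ZT4, and no library is shared with the early night comparison. There, 409 genes (4.3%) passed, 139 without wild type of ZT4, and 227 of the 409 were among the 591. Of the 591 genes, 547 (92.6%) had the same sign at ZT4, against 6581 of all 9503 tested genes (69.3%). *Unc-115b*, *mthl8*, *Fife*, *Dh31*, *Indy*, *Ret*, *Kr*, *CG13055* and *sordd2* each passed at ZT4 in the same direction, so their difference was present at both times. *Fife*, for example, had 4839 and 6687 in *tyf* at ZT4, against 698 and 733 in wild type (log2 fold change 3.01, adjusted p = 0.00010). For the ribosomal proteins, 15 rose and 1 fell at ZT4 (median 0.65), and for the respiratory chain 4 rose and 1 fell (median 0.29).

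The difference between the effect at ZT16 and that at ZT4 passed for 5 genes (0.0526%), the clock genes *vri* and *Cipc* and 3 others. This count moved with single libraries, to 1 and 2 without the first or the second *tyf* library of ZT16, 22 and 102 without the first or the second of ZT4, and 26, 3 and 13 without wild type of ZT2, ZT14 or ZT16. *CG34155* had 603 and 540 in *tyf* at ZT16, against 108 and 109 in wild type (log2 fold change 2.40, SE 0.31, adjusted p = 0.00080), and 1400 and 1309 at ZT4, against 2213 and 1120. *CCHa1-R* had 235 and 90.0 in *tyf* at ZT16, against 16.5 and 32.98 (log2 fold change 2.63, SE 0.50, adjusted p = 0.0077), and 449 and 344 at ZT4, against 1690 and 846. In both genes wild type was high by day and very low by night, and *tyf* lay between the wild-type levels at ZT16. *CG43658*, which wild type expressed mainly at night, had 542 and 511 in *tyf* at ZT16, against 5405 and 1902 (log2 fold change -2.79, SE 0.42, adjusted p = 0.0017), and 333 and 520 at ZT4, against 310 and 200. Each of the 3 thus differed less between ZT4 and ZT16 in *tyf* than between day and night in wild type. *Eip63F-1* and *Irk1* were also highest in wild type at night, but their differences between the times did not pass, with adjusted p of 0.31 for *Eip63F-1* and 0.054 for *Irk1*. *fred*, a cell surface relative of *echinoid*, showed another pattern, with 1341 and 1350 in *tyf* at ZT16, against 378 and 259 (log2 fold change 2.09, SE 0.29, adjusted p = 0.0012), and 373 and 478 at ZT4, against 351 and 232, but the difference between the times did not pass (adjusted p = 0.31).

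**Figure D5:**
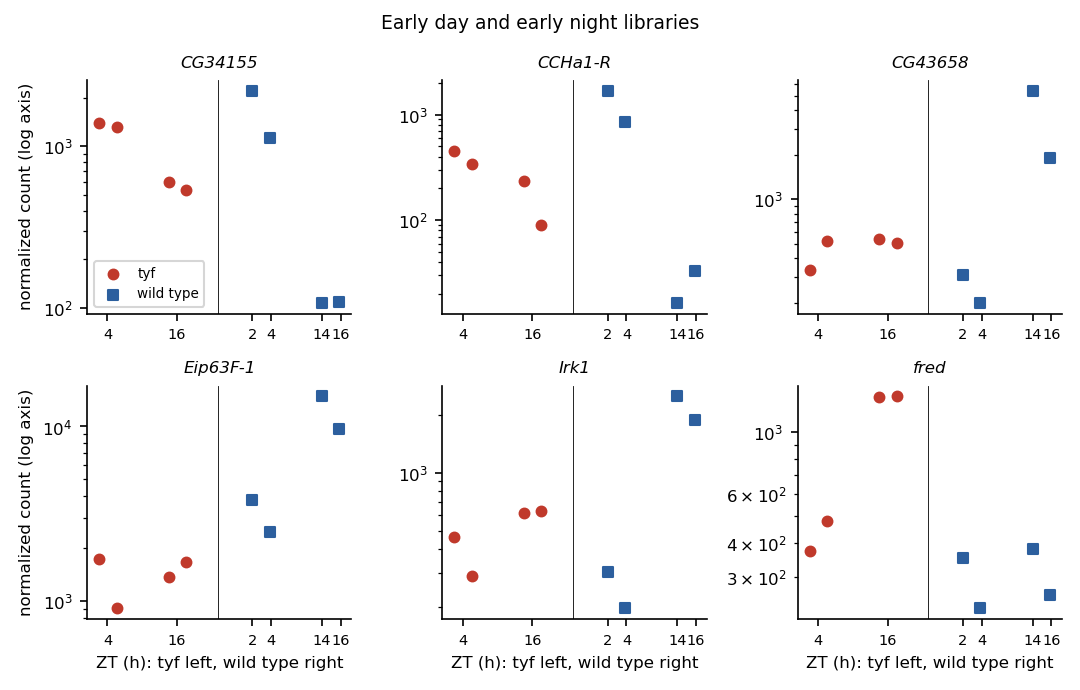
Normalized counts on log axes, with a scale of its own in each panel, of 6 genes in the *tyf* libraries (red circles, left, ZT4 then ZT16) and in the wild-type libraries (blue squares, right, ZT2, ZT4, ZT14 and ZT16). In *CG34155* and *CCHa1-R* the *tyf* libraries of ZT16 lie above both wild-type libraries of the night, and in *CG43658*, *Eip63F-1* and *Irk1* they lie below them.

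The *Atx2* RNAi libraries of ZT0 and ZT12 and the wild-type libraries of ZT12 and ZT24 gave a further view that shares no library with the early night comparison. Of the 591 genes, 450 (76.1%) had an *Atx2* RNAi mean on the same side of wild type as in *tyf*, against 5530 of all 9503 (58.2%). All 4 *Atx2* RNAi libraries lay beyond both of these wild-type libraries on that side in 219 of the 591 genes (37.1%), against 1801 of all genes (19%). On a scale normalized over all 14 libraries, *Fife* had between 4193 and 5294 in the 4 *Atx2* RNAi libraries, against 682 and 460 in wild type of ZT12 and ZT24. *Indy* had between 226 and 570 in *Atx2* RNAi, against 3991 and 3503, and *CG13055* between 39.3 and 64.5, against 600 and 447. For these 3 genes the *Atx2* RNAi libraries lay on the side of the *tyf* libraries. By list, 74 of 87 ribosomal proteins (85.1%) and 53 of 78 respiratory subunits (67.9%) had the same sign, but 10 of 20 activity-regulated genes (50%), below the 58.2% of all genes, although *CG13055* is among them. *Gs2*, by contrast, had between 37.4 and 213 in *Atx2* RNAi, against 67.0 and 73.2, and *Ret* between 45.8 and 719, against 159 and 151, so their groups overlapped. Genotype, stock and library preparation cannot be told apart in these comparisons.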

How the data were processed

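LNv RNA was amplified with T7 RNA polymerase before library preparation. The authors quantified single-end reads with kallisto (version not given in the sources used here) against FlyBase transcripts and deposited, for each of 30438 transcripts, an estimated count without normalization, a TPM value and an effective length in bases, which is another value per transcript deposited by the authors. Each library was quantified on its own. Of the transcripts, 30191 matched 13792 genes of the Ensembl annotation, and 247, with 0.234% of the counts, were left out. Estimated counts were summed per gene and rounded. The deposited TPM values were used only for the shares of gene lists. Normalized counts are counts divided by library size and TMM factor, on the scale of the geometric mean of 8 libraries.

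The test was edgeR 4.0.16 (glmQLFit and glmQLFTest, R 4.3.3, limma 3.58.1) on the 8 libraries of *tyf* and wild type as 4 groups of 2, with TMM, the default filterByExpr filter and Benjamini-Hochberg adjustment at 0.05. The floor behind each bound is 3 counts in a library, which covers counting error only. Alternatives were DESeq2 1.42.0, its size factors, library size alone, no filter, a minimum of 10 counts per library, a fit to the 4 libraries alone, a fit to all 14, a length offset, a replicate block and each library left out. A library size that leaves out *trol*, *fmt* and *Pdf*, and the list counts with a library left out, were added after seeing the data. In simulated data for the ZT16 comparison (9218 genes tested), 11% of 100 genes changed by 1 on the log2 scale and 73% of 100 changed by 2 were recovered, and 12.5% of calls were false.

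Named genes are *tyf*, the 12 higher and 12 lower genes with the largest absolute log2 fold change among those passing with at least 100 normalized counts in the higher group and no overlap between groups, up to 4 passing members of each list in each direction, up to 5 genes of the interaction in each direction and those present in 1 group only. Other genes (paralogs, further list members, clock partners, markers) were named after their values were seen. The members and lists were chosen with earlier results of these data known, in 69 lists whose members can overlap, and list counts and medians carry no test. Python 3.11.15 with pandas 2.3.3 and numpy 2.4.6 built the tables, and matplotlib 3.10.9 drew the plots.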

Additional observations from a re-analysis of the deposited data

Results flagged for a closer look

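The *tyf* effect of 5 genes differed between ZT16 and ZT4 in edgeR's test of the difference. The difference, ZT16 minus ZT4 on the log2 scale, was -5.35 for *vri*, -3.55 for *CG43658*, -2.87 for *Cipc*, 2.70 for *CG34155* and 4.31 for *CCHa1-R*. All groups held 2 libraries, so the spread within a group could not be searched for single libraries that stand apart.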

How the results depend on the processing

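The count of 591 genes (279 higher, 312 lower) moved to 1026 (510 and 516) with DESeq2, 989 (129 and 860) with library size alone, 1006 (490 and 516) with no filter, 946 (493 and 453) with only the 4 libraries and 913 (412 and 501) with all 14. With a library left out it ran from 184 to 355, with 76 to 151 higher and 82 to 204 lower. The ZT4 count of 409 moved to 780 with DESeq2, 816 with no filter, 222 with only the 4 libraries of that comparison and 684 with all 14, and ran from 139 to 438 with a library left out. The 5 genes of the interaction became 54 with DESeq2, 1 with its size factors, 14 with library size alone, 152 with no filter, 23 with at least 10 counts in every library, 27 with all 14 libraries, 1 with the length offset and 8 with library size without *trol*, *fmt* and *Pdf*, and ran from 1 to 102 with a library left out. With the replicate block, 652 genes passed (301 higher, 351 lower), 571 of them among the 591. The labels do not say whether same-numbered *tyf* libraries belong together, and wild type carries no numbers. The deviations of same-numbered *tyf* libraries of ZT16 and ZT4 had r = 0.0114 over 9503 genes. That value showed no shared replicate effect but cannot exclude a pairing. Of the 191 genes named by the rule, none changed direction under any alternative run, 58 passed under every one, and 133 did not pass under at least 1. In the fits with a library left out, the lone library of a group is assumed to vary as the others do. With 2 libraries per group, small changes are rarely called.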
